A study of Mus musculus with 16 samples.

Results

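THOC5 peaks that fall in the second or any later intron of a transcript, and on no annotated repeat, made up 12728 of the 28998 peaks (43.9%) in 8 deposited peak lists of RNA bound by THOC5 in primary mouse vascular smooth muscle cells. They were taken from the annotation deposited with each peak: the peak had to be placed in intron i of n with i of at least 2, and its detailed annotation had to name no repeat element. No score, level or condition entered that choice. The peaks lay in 2273 host genes, on 2401 transcripts and in 5955 introns, where a host gene is the gene of the transcript that the annotation names. Of the 12728 peaks, 12650 lay in protein-coding genes, 63 in long noncoding RNA genes, 7 in transcribed pseudogenes and 8 on transcripts with no match among RefSeq genes, and 50 lay on CpG islands. A share of them lie beside exons. For 1792 of the peaks (14.1%) the merged region, as defined further on, also holds a peak placed in an exon or UTR. Peaks that touch an exon without such a neighbour are not in this count, since exon coordinates were not used here.

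THOC5 belongs to the THO complex, an assembly loaded on nascent RNA during transcription that couples splicing and packaging of the transcript to its export from the nucleus. Introns are removed largely while the RNA is still being made, so RNA bound within an intron belongs to a transcript, or a part of one, that has not been fully spliced. Vascular smooth muscle cells form the muscle layer of the artery wall. Under high phosphate they can lose contractile genes and take on features of bone-forming cells, as in vascular calcification.

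The series holds 16 RNA immunoprecipitation samples, 8 of RNA recovered with THOC5 and 8 inputs, and the lists come from the 8 immunoprecipitates. Cells were labelled wild type in growth medium (Ctrl), wild type in osteogenic medium (Pi), or in osteogenic medium while overexpressing either GFP (GFP OE) or THOC5 itself (THOC5 OE), with 2 lists in each of the 4 conditions. Pi, GFP OE and THOC5 OE thus share the osteogenic medium, and GFP OE and THOC5 OE, called the vector conditions here, share an overexpression construct; the labels name neither the vector nor its promoter. All lists, Ctrl and Pi included, are immunoprecipitates of THOC5. Nothing in the labels says that the 2 samples of a condition are separate cultures, so the p-values below measure the spread between these samples only. The question behind the design is which RNAs THOC5 binds and how this changes as the cells turn osteogenic.

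A peak list gives no expression level, so a gene with more peaks may have more RNA, more binding or both. As a check of the cell type, 5 of 8 smooth muscle markers had a peak of any class in some list (Acta2, Tagln, Smtn, Mylk and Lmod1), Myh11, Cnn1 and Myocd had none, and 2 (Acta2 and Mylk) had later-intron peaks. Of other cell types, 0 of 5 endothelial, 2 of 5 fibroblast (Pdgfra and Col1a2) and 1 of 5 leukocyte markers (Csf1r) had a peak of any class, and none of them had one in a later intron. The lists held 2572 to 4795 peaks, each list with a single peak width between 415 and 553 bp. The authors' peak score was used as a percentile within its list, from 0 for the weakest to 100 for the strongest peak, because no label or header gives its scale. Its lowest value was 14.9 to 29.0 in the Ctrl and Pi lists and 6.31 to 12.6 in the vector lists, and neighbouring low scores lay 0.727 to 1.58 apart in the former and 0.280 to 0.350 apart in the latter. Counted in a list's own step, the lowest score was 39.9 and 20.9 steps in the Ctrl lists, 13.0 and 13.0 in the Pi lists, 36.4 and 36.0 in the GFP OE lists, and 22.96 and 22.0 in the THOC5 OE lists. The vector lists thus have lower and more finely stepped scores, but not a lower floor in steps. The step moved with every comparison between vector and other lists below, and its part in them was not tested.

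The sequences that could be read for these peaks are windows around the starts of annotated transcripts, where a peak reaches into the window. A window runs from 250 bases before the start to 50 after it, from RefSeq on GRCm38.p6, the assembly behind mm10. Of 32851 such windows, 27 were reached by 65 later-intron peaks (0.511%), and in 26 of the 27 the start belonged to another gene than the host, on the strand opposite to the host's in 19. The 27 windows had a median GC content of 49.3%, against 52.7% over all windows, and none of 1005 microRNA hairpins was reached. The 3 windows with a peak in 7 or 8 lists are shown. The peaks have no strand, so where a peak reaches into the second transcript, its RNA and that of the host gene cannot be told apart. Each window is read 5′ to 3′ on the strand of the second transcript, and capitals mark the bases under the peak with the best percentile. The intron named is the one that the annotation gives the peak. A window can also hold exon bases of the host, which were not marked since exon coordinates were not used here.
Clca3a1 intron 10 of 13, start of Gm34866, chr3:144747313-144747612, plus strand: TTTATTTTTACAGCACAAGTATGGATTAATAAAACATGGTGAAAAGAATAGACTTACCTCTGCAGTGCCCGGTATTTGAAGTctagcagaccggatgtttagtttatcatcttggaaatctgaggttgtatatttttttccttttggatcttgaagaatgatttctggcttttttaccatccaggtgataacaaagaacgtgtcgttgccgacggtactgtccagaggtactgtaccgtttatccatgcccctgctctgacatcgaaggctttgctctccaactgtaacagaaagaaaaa
Dst intron 8 of 102, start of Gm51742, chr1:34135072-34135371, minus strand: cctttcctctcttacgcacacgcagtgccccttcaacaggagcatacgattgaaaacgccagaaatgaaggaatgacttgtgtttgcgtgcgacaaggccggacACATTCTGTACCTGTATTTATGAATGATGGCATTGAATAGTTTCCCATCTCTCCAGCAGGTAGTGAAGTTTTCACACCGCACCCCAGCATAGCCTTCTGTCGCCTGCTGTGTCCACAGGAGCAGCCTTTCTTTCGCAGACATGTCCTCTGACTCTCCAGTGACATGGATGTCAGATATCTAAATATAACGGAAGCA
Akap9 intron 46 of 47, start of Gm40260, chr5:4077155-4077454, minus strand: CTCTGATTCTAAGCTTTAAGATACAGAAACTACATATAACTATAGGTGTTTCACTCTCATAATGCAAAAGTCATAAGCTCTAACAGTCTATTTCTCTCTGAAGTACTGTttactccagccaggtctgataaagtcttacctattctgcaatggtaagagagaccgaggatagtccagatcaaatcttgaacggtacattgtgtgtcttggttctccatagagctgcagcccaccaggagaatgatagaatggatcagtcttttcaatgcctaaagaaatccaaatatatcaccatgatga
The peak covered 82 bases of the Clca3a1 window, 196 of the Dst window and 109 of the Akap9 window. In the Clca3a1 and Akap9 windows these bases all lay before the annotated start, outside the second transcript. In the Dst window they ran past the start into it. In Clca3a1, which encodes a calcium-activated chloride channel regulator, the percentile was 83.2 and 86.4 in the Ctrl lists, 63.1 and 72.3 in the Pi lists, 62.6 and 60.5 in the GFP OE lists, and 70.2 and 70.5 in the THOC5 OE lists. Both Ctrl lists were the highest of the 8. In Dst, which encodes the cytoskeletal linker dystonin, it lay between 96.5 and 98.4 in the 7 lists with the peak, and GFP OE replicate 2 had no peak there. In Akap9, which encodes an anchor of protein kinase A at the centrosome and Golgi, it lay between 6.15 and 54.5, and Pi replicate 1 had no peak. The 3 windows thus span strong and weak peaks alike. The peaks themselves are not shown as sequence, since a genome of their build was not used here.

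Later introns held 42.1% and 43.0% of all peaks in Ctrl, 42.5% and 42.8% in the Pi lists, 45.3% and 44.7% in the GFP OE lists, and 45.1% and 44.8% in the THOC5 OE lists. All 4 vector lists were above all 4 others, and Pi lay within the range of Ctrl. The mean was 44.97% (SD 0.297, n = 4) in the vector lists and 42.6% (SD 0.396, n = 4) in the others. The difference of 2.37 percentage points, higher in 4 of 4 vector lists, had the smallest p that 4 against 4 lists can give (0.0286, two-sided exact permutation test) and did not pass after Benjamini-Hochberg adjustment over the 4 contrasts of the share (adjusted p = 0.114). With lists cut to the length of the shortest the difference was 1.24 points (exact permutation p = 0.371). Among peaks at or above the median score of their list it was 1.26 points (exact permutation p = 0.429). As a share of intron peaks outside repeats, in place of all peaks, the difference turned to -3.52 points, since first-intron peaks were 6.03% (SD 1.34) of all peaks in the vector lists and 3.86% (SD 0.873) in the others. Within the osteogenic medium THOC5 OE differed from GFP OE by -0.0521 points, and Pi differed from Ctrl by 0.0791 points (exact permutation p = 1 for each, where 2 against 2 lists cannot go below 0.333). GFP OE exceeded Pi by 2.36 points in 2 of 2 lists (exact permutation p = 0.333, adjusted p = 0.667). Over all 4 conditions, the condition accounted for 93.9% of the variance of the share between lists (exact permutation over 2520 assignments, p = 0.0857, adjusted p = 0.238 over 5 measures).

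**Figure D1:**
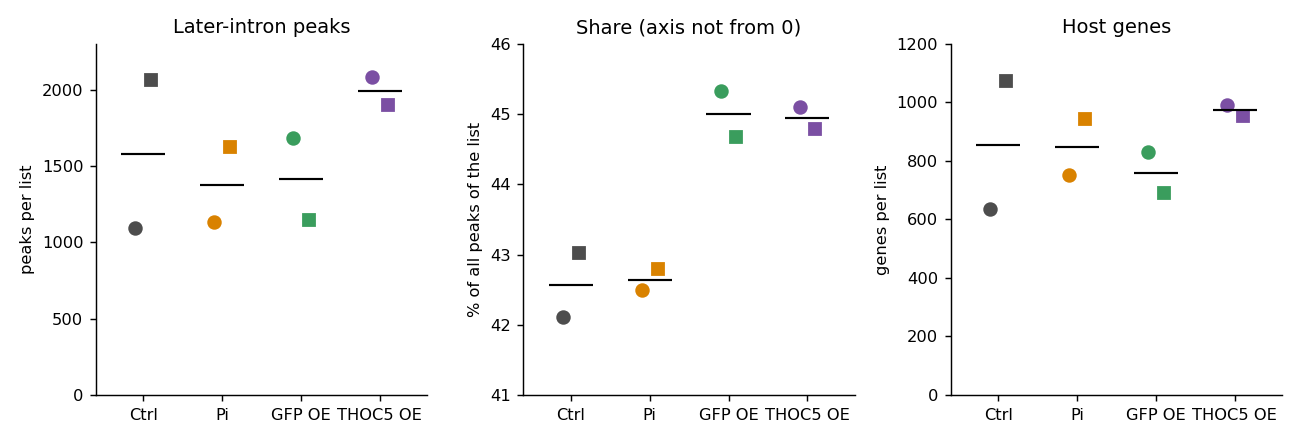
Number of later-intron peaks, their share of all peaks of a list in percent (axis not from 0), and number of host genes, by condition; circles are replicate 1, squares replicate 2 and lines the mean of the 2 lists. The share is from 44.7% to 45.3% in the 4 vector lists and from 42.1% to 43.0% in the others, while the counts of peaks and host genes overlap between conditions.

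In number, the lists held 1096 and 2063 later-intron peaks in Ctrl, 1133 and 1623 in the Pi lists, 1682 and 1149 in the GFP OE lists, and 2083 and 1899 in the THOC5 OE lists. The 2 Ctrl lists differed nearly as much as any 2 lists of the study. Host genes per list ranged from 637 in Ctrl replicate 1 to 1072 in Ctrl replicate 2. A host gene carried 1.72 and 1.92 later-intron peaks on average in Ctrl, 1.505 and 1.72 in the Pi lists, 2.03 and 1.67 in the GFP OE lists, and 2.10 and 1.99 in the THOC5 OE lists. Both THOC5 OE lists were above both Pi lists, and Ctrl and GFP OE lay across the range. By condition this difference did not pass (exact permutation p = 0.238, adjusted p = 0.397, 61.6% of the variance). Between 62.9% and 77.6% of host genes in a list had a single later-intron peak, and 26 to 92 genes had 5 or more. Neighbouring later-intron peaks of a gene lay a median of 14.9 to 20.7 kb apart, and 14 to 63 introns in a list held 2 or more, so that peaks of 1 gene mostly sat in different introns.

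The peaks lay deep within long genes. Distances were measured from the middle of the peak to the ends of the RefSeq gene, whose strand was known or inferred for all but 176 of the peaks. The median distance to the 5′ end was 59.2 and 64.2 kb in the Ctrl lists, 58.6 and 64.9 kb in the Pi lists, 73.5 and 70.9 kb in the GFP OE lists, and 77.0 and 77.1 kb in the THOC5 OE lists. The median distance to the 3′ end was 44.6 and 44.2 kb in the Ctrl lists, 40.3 and 42.6 kb in the Pi lists, 56.1 and 51.4 kb in the GFP OE lists, and 60.3 and 59.3 kb in the THOC5 OE lists. On both measures each vector list was above each of the other lists, and THOC5 OE above GFP OE. A set of 4 tests of vector against other lists was added after these values were seen and supports nothing on its own. The distance to the 5′ end was 74.6 kb (SD 2.98, n = 4) against 61.7 kb (SD 3.29, n = 4), a difference of 12.9 kb. The distance to the 3′ end was 56.8 kb (SD 4.04) against 42.9 kb (SD 1.94), a difference of 13.9 kb. The median span of the host genes was 99.8 kb (SD 2.27) against 83.4 kb (SD 1.69), a difference of 16.3 kb. Peaks within 5 kb of the 3′ end were 2.68% (SD 0.402) of later-intron peaks in the vector lists against 6.19% (SD 1.44) in the others, a difference of -3.50 percentage points. Each of these 4 differences was shown by 4 of 4 vector lists and had an exact permutation p of 0.0286, adjusted over the 4 tests 0.0286, and the difference at the 5′ end fell to 5.60 kb and did not pass among peaks at or above the median score of their list (adjusted p = 0.0571). With the replicate number as a block none of the 4 could pass (exact permutation p = 0.0556 for each).

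**Figure D2:**
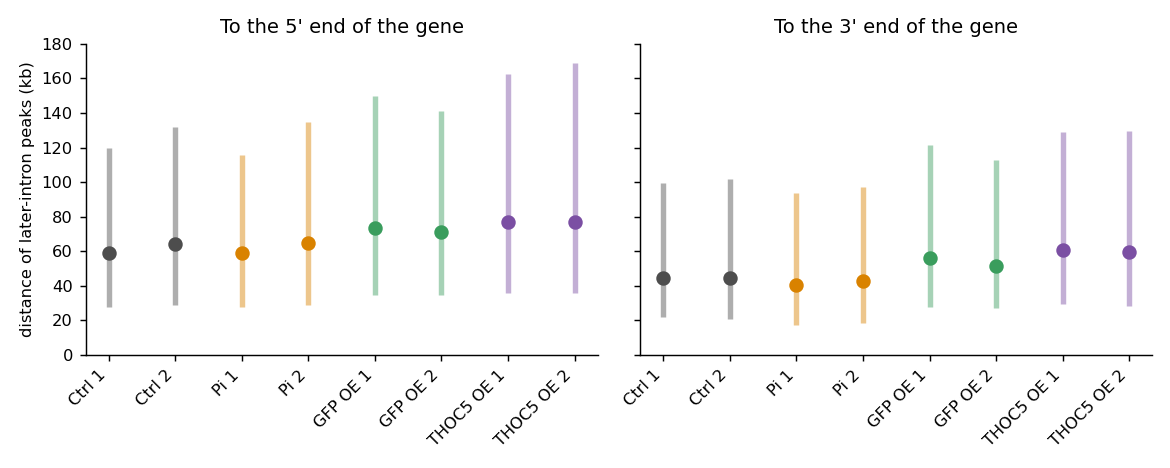
Distance of later-intron peaks to the 5′ end (left) and 3′ end (right) of the host gene in kb, for each of the 8 lists; points are medians and bars run from the first to the third quartile over peaks. The medians of the 4 vector lists are the highest in both panels, and the quartile bars of all lists overlap.

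The position relative to the gene moved less. At the median, peaks lay at 55.9% and 57.3% of the span of the gene from its 5′ end in Ctrl, at 57.8% and 59.2% in the Pi lists, at 55.3% and 55.6% in the GFP OE lists, and at 55.7% and 56.8% in the THOC5 OE lists, and these ranges overlap between vector and other lists. Counted in introns, the median peak was in intron 11 or 12 of a transcript with 27 to 31 introns. On the scale from the first intron (0%) to the last (100%), the median was 38.5% and 41.7% in the Ctrl lists, 41.7% and 42.9% in the Pi lists, 41.4% and 40.6% in the GFP OE lists, and 40% and 41.4% in the THOC5 OE lists. The condition accounted for 42.0% of its variance (exact permutation p = 0.514, adjusted p = 0.514). The last intron held 1.61% to 5.21% of the peaks, with the highest share in Pi replicate 1.

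Later-intron peaks ranked below internal-exon peaks and above first-intron peaks in every list, by median percentile. The median percentile was 43.4 and 45.7 in the Ctrl lists, 48.2 and 47.9 in the Pi lists, 44.4 and 45.7 in the GFP OE lists, and 45.98 and 44.7 in the THOC5 OE lists. Both Pi lists were the highest, but the difference by condition did not pass (77.8% of the variance, exact permutation p = 0.0952, adjusted p = 0.238). Averaged over the 8 lists it was 45.7 (SD 1.64), against 34.7 (SD 4.80) for first introns outside repeats, 65.9 (SD 1.504) for internal exons and 44.9 (SD 2.67) for later introns on repeats. Within lists, later introns exceeded first introns by 11.004 points in 8 of 8 lists and fell short of internal exons by a difference of -20.2 points in 8 of 8 lists (exact sign-flip permutation p = 0.0078, the smallest that 8 lists can give, adjusted p = 0.0141 over 9 class comparisons for each). Among peaks at or above the median score of their list, the excess over first introns was 2.21 points and no longer passed (exact sign-flip permutation, adjusted p = 0.113). Against later introns on repeats the difference was 0.798 points, positive in 4 lists and negative in 3, and did not pass (exact sign-flip permutation, adjusted p = 0.598). Among the 100 strongest peaks of each list, 14 to 25 were in later introns and 65 to 78 in exons.

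**Figure D3:**
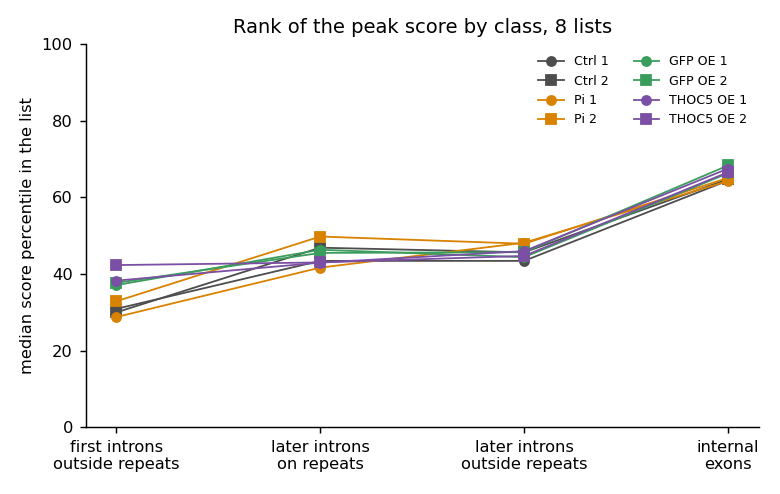
Median percentile of the authors' peak score within the list, for 4 classes of peak, with 1 line per list; circles are replicate 1 and squares replicate 2. In each of the 8 lists later introns outside repeats lie above first introns and below internal exons.

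Host genes of later introns were also hit more often per gene. They carried 1.83 (SD 0.208, n = 8) peaks of their class on average, against 1.02 (SD 0.0130) for first introns, 1.58 (SD 0.166) for internal exons and 1.14 (SD 0.0388) for later introns on repeats. The differences of 0.815, 0.250 and 0.689 peaks per gene were each positive in 8 of 8 lists (exact sign-flip permutation, adjusted p = 0.0141 for each). A gene has 1 first intron and many later ones, so a part of this order follows from the classes themselves. The classes also differ in size. A list held a mean of 1591 later-intron peaks, against 181 in first introns, 936 in internal exons and 269 in later introns on repeats. A larger class can place more peaks in the same gene, so these tests cannot separate crowding from class size, and nothing is read from their p-values. By intron number, the mean of the list medians of the percentile was 34.7 for intron 1, which the rule leaves out, with 1449 peaks, and 43.0 for intron 2, just inside it, with 920. It was 35.9 for intron 3, 41.7 for introns 4 and 5, and 47.1 for introns 6 to 10 and likewise for 11 to 20. It reached 47.4 for introns 21 to 40 and 55.1 for intron 41 and beyond, where 907 peaks lay in 86 genes. The step at the threshold of the rule was thus not sharp, intron 3 ranking close to intron 1.

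Merging peaks that overlap by at least 50% of the narrower one gave 13200 regions over the 8 lists, of which 6237 held a later-intron peak and 5454, in 2187 genes, held more of these than of other peaks. The 5454 are called later-intron regions, and 302 of them also held an exon or UTR peak. Recurrence was low. Of the later-intron regions, 2891 (53.0%) had a peak in 1 list, 844 (15.5%) in 2, and 108 (1.98%), in 85 genes, in all 8. The same shares were 53.2% and 2.17% over all regions for 1 and 8 lists, 54.1% and 1.08% for first introns, and 52.7% and 3.76% for internal exons. The median percentile rose with recurrence, from 26.9 for regions in 1 list to 50.3 in 4 and 73.4 in 8.

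**Figure D4:**
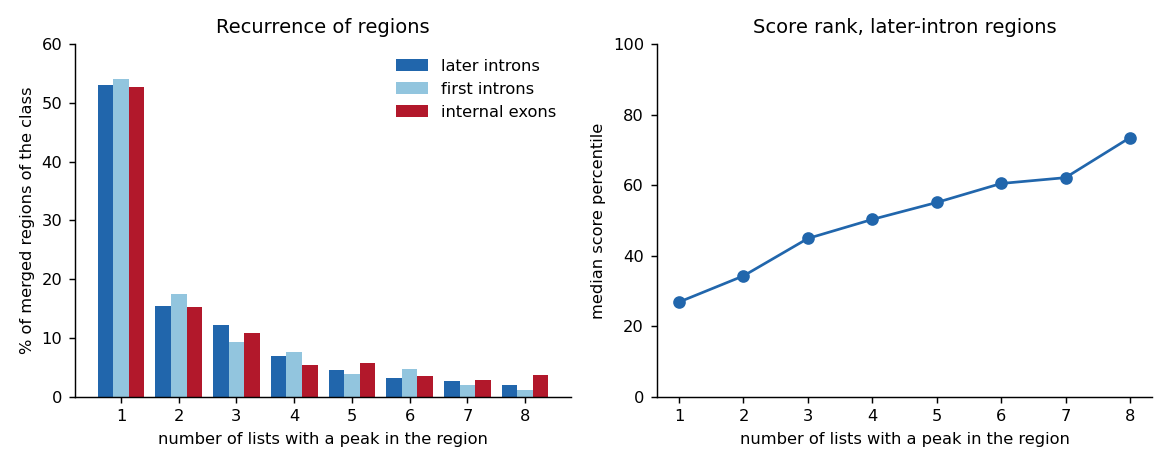
Left, share of merged regions by the number of lists with a peak there, for later-intron, first-intron and internal-exon regions, in percent; right, median percentile of the peak score of later-intron regions by the same number. More than 50% of each class are in 1 list, and the percentile of later-intron regions runs from 26.9 to 73.4.

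The share of a list's later-intron peaks that overlapped a peak of the other list of its condition was 57.1% and 30.6% in the Ctrl lists, 37.1% and 26.6% in the Pi lists, 31.0% and 46.1% in the GFP OE lists, and 52.9% and 57.3% in the THOC5 OE lists. In each pair the shorter list had the higher share, and in THOC5 OE, whose lists are closest in length, both were above 50%. The condition accounted for 52.2% of its variance (exact permutation p = 0.371, adjusted p = 0.464). Both lists of a condition share their overlaps, so this test takes as 2 values what is nearly 1, and its p is not read further. Against first introns, recurrence differed by -1.39 points (lower in 4 of 8 lists). The difference was -4.16 points against internal exons (lower in 7 of 8). It was -1.20 points against later introns on repeats (lower in 5 of 8). Adjusted p was 0.656, 0.0703 and 0.598 (exact sign-flip permutation). Without Ctrl replicate 1 or without Ctrl replicate 2 the difference from internal exons was -5.90 (exact sign-flip permutation, adjusted p = 0.0469). These tests also take the nearly equal values of a condition's 2 lists as separate, so their p-values decide nothing. By the Jaccard index, the shared part of the later-intron regions of 2 lists, lists of 1 condition overlapped by 0.265 (0.190 to 0.385), lists of GFP OE and THOC5 OE by 0.317 (0.276 to 0.353), lists of Ctrl and Pi by 0.223 (0.163 to 0.269) and vector with other lists by 0.208 (0.153 to 0.283). GFP OE and THOC5 OE lists thus overlapped each other within the range seen between replicates. The top of that range is the THOC5 OE pair alone (0.385). The replicate pairs of Ctrl (0.248), Pi (0.190) and GFP OE (0.236) lay below every pair of a GFP OE and a THOC5 OE list.

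The strongest regions in all 8 lists were led by Dst, at chr1:34249545-34250018 in intron 61 of 97 (NM_134448), with percentiles from 99.3 to 99.8; in 2 of the 8 lists this peak was placed in an exon. Fat1, which encodes an atypical cadherin, followed at chr8:45009965-45010503 in intron 4 of 25, with percentiles of 99.2 and 99.5 in the Ctrl lists, 99.3 and 99.5 in the Pi lists, 99.3 and 99.1 in the GFP OE lists, and 99.5 and 99.6 in the THOC5 OE lists. A second Dst region lay at chr1:34121710-34122248 in intron 8 of 102 (98.4 to 99.6). Bmp1, the protease that trims procollagen, had its region at chr14:70504862-70505277 in intron 8 of 20 (97.4 to 98.6). Xdh, a purine-degrading enzyme, had its region at chr17:73906195-73906668 in intron 22 of 35 (96.5 to 98.2). All 5 regions had percentiles of at least 96.5 in each of the 8 lists. Utrn, a dystrophin relative that ties actin to the membrane, had a region at chr10:12669652-12670125 in intron 35 of 73 (95.5 to 97.7), placed on a repeat in 2 lists. The other 4 were Setd5, a SET-domain gene (intron 13 of 20, 94.9 to 97.1), Smg1, the kinase of nonsense-mediated decay (intron 2 of 62, 94.4 to 96.7), Rbm26, an RNA-binding protein (intron 7 of 21, 93.6 to 97.9) and Ptprs, a receptor tyrosine phosphatase (intron 3 of 27, 91.5 to 93.9).

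Host genes with the most later-intron peaks were very long. Syne1, which encodes nesprin-1, a tether between nucleus and actin, spans 530.5 kb at chr10:5020192-5550692 and carried 18 and 32 later-intron peaks in Ctrl, 14 and 27 in the Pi lists, 27 and 21 in the GFP OE lists, and 27 and 24 in the THOC5 OE lists. Its peaks fell in 54 of 145 introns, and no condition stood apart. Vps13b, a lipid-transfer gene of 560.1 kb, was the steadiest of the 10 leading genes, with 13 to 18 peaks in every list (mean 15.5, SD 2.07, n = 8). Kalrn had a mean of 13.6 (SD 5.15, 4 to 22) and Nbas, of Golgi-to-endoplasmic-reticulum transport, 11.8 (SD 3.96, 6 to 18). Utrn carried 14 and 21 in the Ctrl lists, 5 and 16 in the Pi lists, 20 and 6 in the GFP OE lists, and 12 and 8 in the THOC5 OE lists, so its conditions overlapped. It also ranked highest among the 10 by mean percentile, 82.4, whereas Csmd1 ranked lowest with 28.7.

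Csmd1, a membrane protein gene of 1643 kb at chr8:15892538-17535385, carried 13 and 15 later-intron peaks in Ctrl, 13 and 17 in the Pi lists, 2 and 0 in the GFP OE lists, and 18 and 22 in the THOC5 OE lists. Both GFP OE lists were below all 6 others, which did not overlap them. Nbea, a gene of membrane traffic, carried 4 and 11 in the Ctrl lists, 3 and 8 in the Pi lists, 15 and 9 in the GFP OE lists, and 20 and 18 in the THOC5 OE lists, the 2 THOC5 OE lists being the highest. Dync2h1, the heavy chain of the ciliary dynein, carried 4 and 10 in the Ctrl lists, 6 and 9 in the Pi lists, 16 and 9 in the GFP OE lists, and 16 and 15 in the THOC5 OE lists. Vps13d, another lipid-transfer gene, carried 9 and 14 in the Ctrl lists, 14 and 11 in the Pi lists, 7 and 3 in the GFP OE lists, and 6 and 9 in the THOC5 OE lists, and Syne2, which encodes nesprin-2, had 6 to 18. These counts are single genes among 2273 and were not tested. Together the 10 leading genes held 8.31% of the later-intron peaks and the 100 leading genes 34.8%, and 218 genes held 50% of them.

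Host genes had a median span of 67.8 kb, against 17.1 kb for the 21896 protein-coding genes of RefSeq. The 176 host genes (7.74%) with a later-intron peak in all 8 lists spanned 140.3 kb at the median, and the 889 (39.1%) with one in 1 list 45.1 kb. Longer genes offer more intron to fall in, and these spans were not set against placed peaks. Of the host genes, 998 (43.9%) had no exon or UTR peak in any list.

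Of the 2273 host genes, 34 (1.5%) had more later-intron peaks in every vector list than in any other list, and 11 (0.484%) had fewer in every one. Most genes have 0 to 2 peaks and so cannot separate the lists well. Among the 86 genes with a mean of at least 3 later-intron peaks per list, 7 were higher in the vector lists and 0 were lower; these were singled out after their values were seen. Hmcn1, which encodes the matrix protein hemicentin, carried 0 and 2 in the Ctrl lists, 0 and 0 in the Pi lists, 10 and 8 in the GFP OE lists, and 11 and 16 in the THOC5 OE lists. Dnah7b, an axonemal dynein gene, carried 1 and 4 in the Ctrl lists, 0 and 3 in the Pi lists, 11 and 8 in the GFP OE lists, and 16 and 15 in the THOC5 OE lists. Focad, which encodes focadhesin, carried 0 and 1 in the Ctrl lists, 0 and 1 in the Pi lists, 12 and 6 in the GFP OE lists, and 9 and 9 in the THOC5 OE lists. Acaca, the rate-limiting enzyme of fatty acid synthesis, carried 1 and 3 in the Ctrl lists, 1 and 3 in the Pi lists, 8 and 7 in the GFP OE lists, and 10 and 10 in the THOC5 OE lists. In these 4 genes the lowest vector list was above the highest other list, as their choice fixes, and THOC5 OE was above GFP OE in Dnah7b, Hmcn1 and Acaca. Thada had 6 to 12 in the vector lists against 3 to 5, Anks1b 4 to 8 against 0 to 2, and Nav3, a microtubule-binding protein, 4 to 8 against 0 to 3. Their mean percentiles were low, from 17.7 for Dnah7b to 39.8 for Thada.

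**Figure D5:**
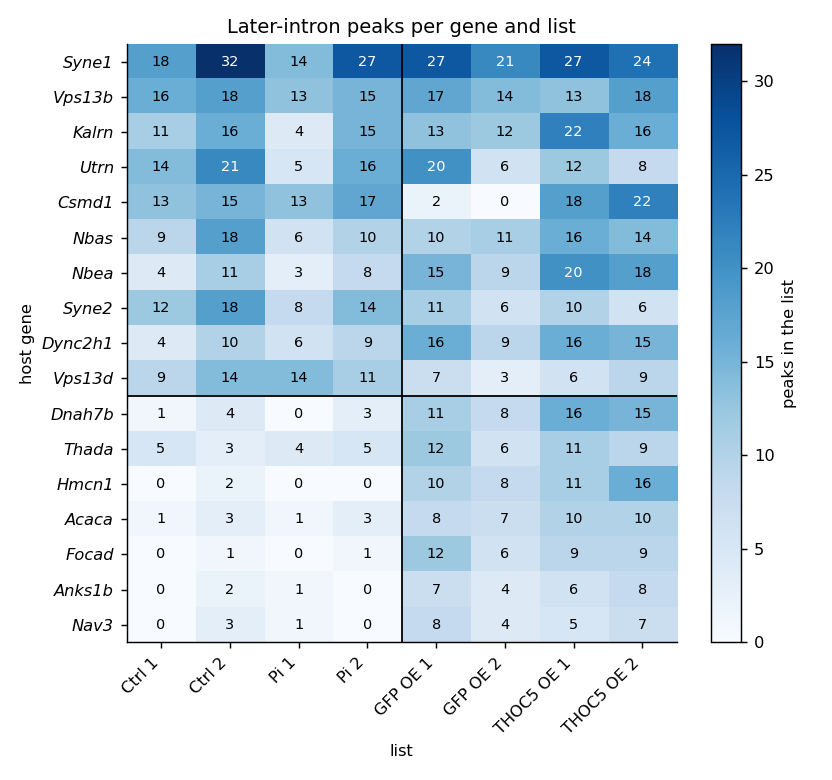
Number of later-intron peaks in each of the 8 lists for the 10 host genes with the highest mean (above the line) and the 7 genes that were higher in every vector list (below it); colour and digits give the count. Csmd1 drops to 2 and 0 in the GFP OE lists, and Dnah7b to Nav3 run from 0 to 5 in the left 4 lists and from 4 to 16 in the right 4.

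Between growth and osteogenic medium, 82 of 3592 later-intron regions (2.28%) had a peak in each Pi list and no Ctrl list, where 2.44% of all merged regions did. In the other direction 138 (3.84%) were in each Ctrl list and no Pi list, where 4.42% of all regions were. Both shares lie near the background and are no result about later introns. The leading Pi regions were in Myo18a, an unconventional myosin (intron 4 of 40, percentiles 93.8 and 92.9), Col4a6, a basement membrane collagen (intron 21 of 44, 92.6 and 92.8), Mycbp2, a ubiquitin ligase (intron 8 of 84), Dst (intron 5 of 102) and Ankrd17 (intron 26 of 33). The leading Ctrl regions were in Dst (intron 55 of 102, 98.6 and 99.1; intron 61 of 102, 92.9 and 94.97), Slc44a2, a choline transporter-like gene (intron 18 of 21), Nktr (intron 9 of 16) and Abcc5, an efflux pump (intron 14 of 29). Dst thus held leading regions in both directions, and its total was 10 and 9 later-intron peaks in Ctrl and 7 and 9 in Pi.

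Between the overexpressed proteins, 231 of 3545 later-intron regions (6.52%) were in each THOC5 OE list and no GFP OE list, where 7.76% of all merged regions were, and 37 (1.04%) in each GFP OE list and no THOC5 OE list, where 1.28% were. The 2 directions differ in both sets alike, and the GFP OE lists held 3711 and 2572 peaks against 4618 and 4240 for THOC5 OE. With every list cut to 2572 peaks the THOC5 OE regions numbered 92 and the GFP OE regions 35. The share of all merged regions was not counted at that cut. Uncut, the THOC5 OE regions were led by Cpsf6, a subunit of mRNA 3′ cleavage factor (intron 6 of 9, 95.3 and 95.2). Smarcc2 of the BAF chromatin complex (intron 13 of 28, 93.3 and 93.7) came next. Exoc4 of the exocyst (intron 10 of 17, 92.4 and 92.2) came after it. Prpf39, a splicing factor (intron 2 of 13), and Anapc5 of the anaphase-promoting complex (intron 16 of 16) followed. Of these 5, the Exoc4 region alone was in no other list. The GFP OE regions ranked lower and were led by Utrn (intron 44 of 73, 74.2 and 72.1), Ralgapa2, Srpk2, a kinase of splicing factors, Birc6 and Tax1bp1.

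Between GFP OE and Pi, which share the medium, 163 of 3502 later-intron regions (4.65%) were in each GFP OE list and no Pi list, where 4.87% of all merged regions were, and 106 (3.03%) were in each Pi list and no GFP OE list, where 3.52% were. The former were led by Dst (intron 61 of 102, 97.7 and 97.3), Fam193b (introns 6 and 3 of 10), Smg1 (intron 6 of 62) and Utrn (intron 48 of 73). The latter were led by Ubr4, a ubiquitin ligase (intron 31 of 105, 98.9 and 98.8), Chd4, the remodeller of the NuRD complex (intron 9 of 38, 98.5 and 98.4; intron 34 of 38, 97.7 and 97.3), Lama5, a laminin chain (intron 2 of 78, 92.2 and 93.7) and Sbf1 (intron 33 of 39). The region counts of all 3 contrasts are set by presence of a called peak and change with list length and with the loss of either list.

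Over both vector conditions, 40 of 5454 later-intron regions (0.733%) had a peak in all 4 vector lists and no other list, where 0.833% of all merged regions did. The leading ones were in Atp9b, a lipid flippase gene (intron 18 of 29, percentiles 86.2 to 88.8), Hectd4, a ubiquitin ligase gene (intron 12 of 75, 74.9 to 77.8), Ambra1, of autophagy (intron 14 of 18, 69.3 to 75.6), Ascc3, a helicase gene (intron 35 of 41, 62.7 to 66.6) and Sap130, of a histone deacetylase complex (intron 16 of 20, 60.8 to 64.3). In the other direction 13 regions (0.238%) were in all 4 Ctrl and Pi lists and no vector list, where 0.22% of all merged regions were. Ubr4 (intron 31 of 105) had percentiles of 98.3 and 98.7 in Ctrl and 98.9 and 98.8 in the Pi lists, and Lama5 (intron 2 of 78) 93.5 and 93.5 in Ctrl and 92.2 and 93.7 in Pi. Both regions thus had percentiles above 92 in 4 lists and no peak in the other 4. Ubr2 (78.6 to 87.6), Cnot1 (78.2 to 86.6) and Kank1 (74.95 to 79.1) followed.

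Genes of fixed lists were set against the 2273 host genes, whose median was a later-intron peak in 2 lists. For the number of list genes with any later-intron peak, here and below, the background is 2273 host genes beside 21896 protein-coding genes of RefSeq. Their median spans were 67.8 and 17.1 kb. Length and expression were not matched, so these numbers are not read as an excess. Of 25 contractile genes 10 had a later-intron peak, in 4.5 lists at the median. Mylk, the myosin light chain kinase, carried 4 and 5 peaks in Ctrl, 2 and 5 in the Pi lists, 3 and 2 in the GFP OE lists, and 6 and 5 in the THOC5 OE lists. The THOC5 OE lists were above the GFP OE lists, and Ctrl and Pi lay across both. Ppp1r12b, a subunit of myosin phosphatase, had one in 7 lists, and Myh10, a nonmuscle myosin, in 6. Of 12 phosphate and calcification genes 1 had a later-intron peak, the phosphate importer Slc20a1, with 1 peak in each Pi list, 0 in the other 6 lists and a mean percentile of 70.8. Slc20a1 is 1 of 59 host genes of 1774 (3.33%) with later-intron peaks in each Pi list and no Ctrl list, so that part of its pattern is not rare. How many of the 59 also had no such peak in the vector lists was not counted.

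Of 25 matrix genes 17 had a later-intron peak, led by Fbn1, which encodes fibrillin-1 (2 and 6 in the Ctrl lists, 2 and 4 in the Pi lists, 1 and 2 in GFP OE, 2 and 2 in the THOC5 OE lists), and Ltbp2, of the same microfibrils, with 1 peak in every list. Tnc, which encodes tenascin-C, and the collagen gene Col5a1 had one in 7 lists each. In 2 of the 17, Lama5 and the basement membrane collagen gene Col4a1, peaks were in all 4 Ctrl and Pi lists and in 0 of 4 vector lists, a pattern of 9 of 2273 host genes (0.396%). Of 20 cytoskeletal linkers and motors 17 had a later-intron peak, 8 of them in all 8 lists, with 629 peaks in total and a median of 7 lists. Dst carried 10 and 9 in the Ctrl lists, 7 and 9 in the Pi lists, 9 and 5 in the GFP OE lists, and 9 and 5 in the THOC5 OE lists, at a mean percentile of 94.4. Of 20 adhesion genes 10 had one, and the cadherins Fat1 and Cdh2 and the tensin gene Tns3 had it in all 8 lists, as did Tln2, which encodes talin-2.

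In the pathways of RNA export and decay, 18 of 26 genes of the THO complex, nuclear pore and export had a later-intron peak, in 2 lists at the median. Thoc2, the scaffold of the THO complex, carried 2 and 2 in the Ctrl lists, 1 and 1 in the Pi lists, 4 and 2 in the GFP OE lists, and 2 and 2 in the THOC5 OE lists, at a mean percentile of 81.1. Mcm3ap, which encodes the export scaffold GANP, and the pore genes Nup98 and Nup188 also had one in all 8 lists. Thoc5 itself, the immunoprecipitated and overexpressed protein, had 1 later-intron peak, in Ctrl replicate 2 in intron 17 of 19 at percentile 3.73, and 0 in the other 7 lists, THOC5 OE included. The peak lists do not show the level of the transgene. Of 22 mRNA decay genes 13 had one, with Smg1 (2 to 5 peaks in every list, mean percentile 94.0) and the exonuclease gene Xrn1 (1 to 3) in all 8 lists, Smg6 in 6, and Cnot1, the scaffold of the deadenylase, in 5. Of 23 splicing and helicase genes 12 had one and none in all 8 lists, Luc7l2 reaching 7 and Rbm25, Sf3b1 and Dhx9 4 each.

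Of 30 chromatin genes 27 had a later-intron peak, 8 of them in all 8 lists. Setd5 carried 3 and 3 in the Ctrl lists, 1 and 2 in the Pi lists, 2 and 1 in the GFP OE lists, and 1 and 1 in the THOC5 OE lists, and Nsd1, a histone methyltransferase, 1 to 3 in every list. Bptf, of a nucleosome remodeller, carried 2 or 3 in every list and Chd6, another remodeller, 3 to 8. The Ctrl lists were the highest for Setd5. For Bptf both Pi lists had 3 peaks, as had GFP OE replicate 2, and the other lists had 2. For Chd6 the THOC5 OE lists, with 8 and 5, were above the Pi lists, with 3 and 4. The Ctrl lists, with 4 and 7, and the GFP OE lists, with 5 and 4, reached into the THOC5 OE range. Of 16 Wnt genes 6 had a later-intron peak, led by the receptor genes Lrp6, with 1 peak in every list, and Lrp5, in 6; the poly-ADP-ribosyltransferase Tnks was in 5 and Axin1, of the destruction complex, was in all 4 Ctrl and Pi lists and 0 of 4 vector lists. Of 20 TGF-beta and BMP genes 3 had one, Bmpr2, Smad4 and Acvr1, each in 1 list. The lists were made of genes of unequal length and number of introns, so their counts are not compared with each other.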

How the data were processed

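Immunoprecipitation used a Magna RIP kit and libraries followed rRNA depletion, per the labels' protocols, and FastQC, Bowtie2, MACS2, SAMtools and mm10 are named without role or version, per the submitters' processing notes. HOMER's annotatePeaks.pl gave the annotation on mm10, per the file headers. Not given in the sources used here are the way peaks were called and whether the inputs served as background. The deposited score of each peak was used only as a percentile within its list. The headers' condition letters and numbers joined lists to samples. The members, gene lists and tests were chosen with earlier results of these data known.

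Classes came from the deposited annotation and genes from its transcript, matched to RefSeq (GRCm38.p6); the nearest gene of the deposited table was another gene in 38.9% of peaks. Gene strand came from RefSeq start sites for 10368 peaks and was inferred from intron order or deposited distances for 2184, an inference that matched in 1271 of 1271 and 1265 of 1265 genes of known strand. Peaks were merged by single linkage at an overlap of 50% of the narrower peak, and a later-intron region has more than 50% of its peaks in the class. Tests were exact permutations of lists or sign flips within lists, two-sided, with Benjamini-Hochberg adjustment at 0.05 within each family (Python 3.11.15, numpy 2.4.6, pandas 2.3.3), tested on simulated data. Alternatives were a score at or above the list median, lists cut to 2572 peaks, other overlaps and denominators, the nearest gene, a replicate block, each list left out and, added after seeing the data, regions with an exon or UTR peak left out and regions counted by any or every peak. Genes named are Thoc5, the 10 with most later-intron peaks, the 10 strongest regions in all 8 lists, the 5 strongest regions per comparison and direction, and up to 4 per fixed gene list, passing over predicted genes; others were chosen after their values were seen. Some genes that this rule names, and the result of 1 fixed list, are not reported here. Depth was not read, since reads and inputs were not analysed here, and RNA without a peak may still be bound.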

Additional observations from a re-analysis of the deposited data

How the results depend on the processing

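Of 362 values under alternatives, 308 kept their direction and side of the threshold, or for counts stayed within 1.5 times; the cause of the others was not tested. Among peaks at or above the list median, the share of later introns became 0.740 (THOC5 OE minus GFP OE) and -0.942 (GFP OE minus Pi), the percentile against later introns on repeats -1.23 and against first introns 2.21 (exact sign-flip permutation, adjusted p = 0.113), the 5′ distance of vector against other lists 5.60 kb, and the region counts 48 (Pi, not Ctrl), 59 (Ctrl, not Pi), 111 (THOC5 OE, not GFP OE), 7 (GFP OE, not THOC5 OE), 72 (GFP OE, not Pi) and 59 (Pi, not GFP OE). With lists cut to the shortest, recurrence by condition took 99.4% of the variance (exact permutation, adjusted p = 0.0476; its paired values are nearly 1 value each), the percentile against repeats was -0.185 and the THOC5 OE regions 92. With an overlap of 1 base recurrence against internal exons was -6.31 points (exact sign-flip permutation, adjusted p = 0.0234). Without regions holding an exon or UTR peak it was -6.75 (exact sign-flip permutation, adjusted p = 0.0234) and the percentile against repeats -0.130. Both recurrence p-values take the lists of a condition as separate, though these are nearly 1 value, and are not read further. With intron peaks as denominator the share became -2.23 (Pi minus Ctrl), -1.42 (GFP OE minus Pi) and -3.52 (vector minus other).

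Leaving out 1 list in turn gave a share of -0.380 to 0.538 (Pi minus Ctrl, negative without Ctrl replicate 1 at -0.380 and without Pi replicate 2 at -0.0665), -0.378 to 0.274 (THOC5 OE minus GFP OE, positive without GFP OE replicate 1 at 0.274 and without THOC5 OE replicate 2 at 0.107), recurrence against internal exons of -5.90 to -2.51 (passing without either Ctrl list, exact sign-flip permutation, adjusted p = 0.0469) and against repeats of -2.00 to 0.567 (positive without either Ctrl list), and a percentile against repeats of -0.0152 to 1.19 (negative without Pi replicate 1). For recurrence, leaving out either Ctrl list takes out both, so these are 1 test, and its p is not read further. With 1 list left out, the region counts ran from 81 to 691 (Pi, not Ctrl), 136 to 1086 (Ctrl, not Pi) and 229 to 834 (THOC5 OE, not GFP OE). They ran from 36 to 628 (GFP OE, not THOC5 OE), 161 to 902 (GFP OE, not Pi) and 103 to 818 (Pi, not GFP OE). In these counts 1 list then stands for a condition. With the replicate number as a block, the 4 vector differences of position and span stayed at 12.9, 13.9, -3.50 and 16.3 with an exact permutation p of 0.0556, and no other call changed. The labels do not say if the numbers pair the samples. Deviations of same-numbered lists correlated at -0.168 to 0.0901 over 2273 genes. With 2 lists in a condition, such values can neither show nor exclude a pairing. Leaving out peaks that reach an exon by coordinates was not run, since exon coordinates were not used here. Depth is not given by the lists, so a region absent from a list may lie under its threshold.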

Other observations

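Strong peaks in a single list were rare but not absent. Of the 2891 later-intron regions in 1 list, 21 had a percentile of at least 95, with 1 and 6 in the Ctrl lists, 6 and 4 in the Pi lists, 3 and 0 in GFP OE and 1 and 0 in the THOC5 OE lists. Fn1, which encodes fibronectin, had both of its later-intron peaks in Pi replicate 1, at chr1:71650814-71651367 in intron 2 of 43 and chr1:71618796-71619349 in intron 22 of 43, at percentiles of 99.96 and 99.93. They were the strongest later-intron peaks of that list, and the other 7 lists, Pi replicate 2 included, had none in Fn1. The next 5 single-list regions by percentile were a Fat1 intron 7 peak and an Lrp1 intron 5 peak in Ctrl replicate 2 (99.6 and 99.4), a Sptbn1 intron 24 peak in the same list (99.1), a Map4k4 peak in Pi replicate 2 (99.1) and an Exoc4 peak in THOC5 OE replicate 1 (98.9). Xdh, whose intron 22 region was in all 8 lists, had a further pair of such regions, in introns 28 and 34, in GFP OE replicate 1 (96.4 and 95.5). These genes were singled out after their values were seen.

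The deposited nearest gene of 793 later-intron peaks (6.23%) was a microRNA gene, although no later-intron peak reached any of the 1005 microRNA hairpins of the RefSeq table.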
